A study of Mus musculus with 6 samples.

Results

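The genes described here encode the cytosolic heat shock proteins of the mouse and their master transcription factor. They were picked by symbol as Hspa1a, Hspa1b, Hspa8, Hsp90aa1, Hsp90ab1, Hsph1, Dnaja1, Dnajb1, Hspb1 and Hsf1, and all 10 were found among the 24391 genes of the count table. The cells were Neuro2a, an established mouse neuroblastoma line. All cells were moved to a medium named D-MEM(-SG) with fetal bovine serum, and RNA was taken 18 h later. Of the 6 libraries, 3 came from cells given vehicle (control) and 3 from cells given 5 mM D-serine. The labels give neither the meaning of the medium's abbreviation nor whether the 3 libraries of a group came from separate cultures, so p-values measure the spread between these libraries, which may be technical.

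Heat shock proteins are chaperones that keep other proteins folded. HSP70 proteins bind unfolded segments of a client in a cycle driven by ATP, J-domain proteins such as Dnaja1 and Dnajb1 deliver the client and start ATP hydrolysis, and the HSP110 protein Hsph1 releases the nucleotide so that the cycle can run again. HSP90 proteins then act on partly folded clients such as kinases and steroid receptors, while the small heat shock protein Hspb1 holds unfolded proteins without using ATP. The factor Hsf1 trimerises under proteotoxic stress and binds heat shock elements, which are alternating repeats of GAA and TTC spaced by 2 bases, and Hspa1a and Hspa1b are its classical strongly inducible targets.

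Stretches of 80 bases around such repeats are shown because these repeats are the letters that Hsf1 is known to recognise, and several members are its known targets. The sequences are from RefSeq on GRCm38.p6, and 6 of the 10 members had a promoter entry there. The motif of 2 repeats, GAANNTTC or TTCNNGAA, covers both strands and was searched in the 250 bases before each start. Capitals mark the GAA and TTC letters of a match.
Hspa1a (chr17:34972217-34972296, minus strand): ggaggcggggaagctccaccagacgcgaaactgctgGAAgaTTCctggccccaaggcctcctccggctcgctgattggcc
Hsph1 (chr5:149636337-149636416, minus strand): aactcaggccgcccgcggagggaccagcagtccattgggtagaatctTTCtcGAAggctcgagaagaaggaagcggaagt
Dnaja1 (chr4:40722308-40722387, plus strand): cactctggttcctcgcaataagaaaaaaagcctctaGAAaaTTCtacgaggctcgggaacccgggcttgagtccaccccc
Hspb1 (chr5:135887786-135887865, plus strand): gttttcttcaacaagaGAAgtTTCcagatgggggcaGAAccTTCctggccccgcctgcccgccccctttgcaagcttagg
Hspa1b has the same 80 letters as Hspa1a (chr17:34959299-34959378, minus strand). A match of 2 repeats was thus found in 5 of the 6 members with an entry, at 1 of the 3 listed starts of Dnaja1 and both of Hsph1. None was found at the 2 starts of Dnajb1. Of all 32851 starts listed, 12.8% held such a match. That share is per start and the 5 of 6 is per member, so they are not directly comparable. With a further repeat added at the same spacing (NNGAA or NNTTC), 0.466% of all starts held a match and 0 of the 6 members did. A match describes letters and not a bound site.

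Total counts per library ran from 32518483 to 40024265. D-serine replicate 1 stood apart from its group, with a chi-square statistic per degree of freedom of 13.9 and 17.7 against its fellows, where the other pairs within a group had 3.88 to 6.54. Of the sympathoadrenal markers, 12 of 13 had a mean of at least 1 CPM (read counts scaled to the library's TMM-adjusted size), whereas the neurofilament genes Nefl and Nefm were near 0 (0.00907 and 0.0773 CPM). The 5 leukocyte markers summed to at most 0.651 CPM in any library. The highest sums of the other lists were 1.31 CPM for epithelium, 4.71 for endothelium, 6.9 for fibroblast and 16.1 for glia. The 6 neuronal cytoskeleton markers summed to between 849.7 and 930.8 CPM in controls and between 972.2 and 1057.1 CPM with D-serine, and their part in the results was not tested.

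Hspa1a and Hspa1b, the inducible HSP70 genes, were almost without reads, both with and without D-serine. Hspa1a (chromosome 17, 35106304 to 35109101, minus strand, 1 exon, on the coordinates as deposited, whose build is unclear) had 0 counts in all 3 control libraries and, with D-serine, 0, 2 and 0 counts in replicates 1 to 3. Hspa1b (chromosome 17, 35093374 to 35096183, minus strand, 1 exon) had 0, 0 and 2 counts in the controls and the same 0, 0 and 2 counts in the D-serine libraries. Every one of these values lay below 3 counts. A count of 0 allows a level of up to 3 counts, which corresponded to between 0.0745 and 0.093 CPM in these libraries and covers counting error only. A count of 2 allows a higher level than that. No fold change is therefore given for either gene.

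The pair are neighbouring intronless copies, and reads that map to both could have been discarded or split, since the handling of such reads is not given in the sources used here. In GENCODE transcripts (release for GRCm38), 48.6% of the 100-base windows of Hspa1a also occurred in a transcript of another gene, and 1473 of its 2868 windows did not. In Hspa1b, 49.9% of windows were shared and 1354 of 2704 were not. Their promoters were nearly identical, with 4 differences over the 300 bases of the entries, namely C44T, T47C, T249G and C276T. These are read from Hspa1a to Hspa1b and counted from the first base of the entry.

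Hspb1 was close to absent as well. Its counts were 5, 15 and 7 in the controls (replicates 1 to 3), against 13, 0 and 4 in the D-serine libraries in the same order, which is 0.155, 0.404 and 0.188 CPM against 0.331, 0 and 0.0993 CPM. The groups overlapped and did not differ detectably (exact two-sided permutation test on CPM, p = 0.4; such a test of 3 against 3 cannot go below 0.1). Of its 831 windows of 100 bases, 42.7% also occurred in the pseudogene Hsp25-ps1. These 3 genes failed the filter on low counts, so 7 members entered the test across genes.

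The constitutive chaperones were abundant. To compare genes with each other, counts were divided by the summed exon length in kilobases and by the library size (RPKM). Hsp90ab1, the constitutive HSP90, stood highest at 1092 ± 29.3 RPKM (mean ± SD over all 6 libraries), followed by the constitutive HSP70 Hspa8 at 823.4 ± 30.1. The inducible HSP90, Hsp90aa1, had 431.8 ± 5.81 and Hsph1 had 137.4 ± 9.86 RPKM. The J-domain genes were lower, at 46.3 ± 0.727 RPKM for Dnajb1 and 25.8 ± 1.15 for Dnaja1, and Hsf1 had 19.7 ± 0.995. Each neighbouring pair in this order was separated, because the lowest library of the higher gene exceeded the highest library of the lower one, the closest being Dnaja1 (24.2 RPKM at least) and Hsf1 (21.4 at most). The length of Dnaja1, 5790 bases, is summed over all its annotated exons, with 1503 bases shared with Smu1 on the opposite strand. Of its 100-base windows, 14.8% also occurred in transcripts of other genes, foremost Gm15542, so its place in the order is uncertain. The shared part was larger in Hspa8 (62.8%) and Hsp90aa1 (47.5%), against 0% in Hsp90ab1. Whether reads from shared stretches were counted is unknown, and separation between libraries does not bear on this. The places of Hspa8 and Hsp90aa1, and the lead of Hsp90ab1 over Hspa8, are therefore uncertain too. Together the 10 genes took between 0.654% and 0.66% of all counts in control libraries and between 0.629% and 0.664% with D-serine.

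**Figure D1:**
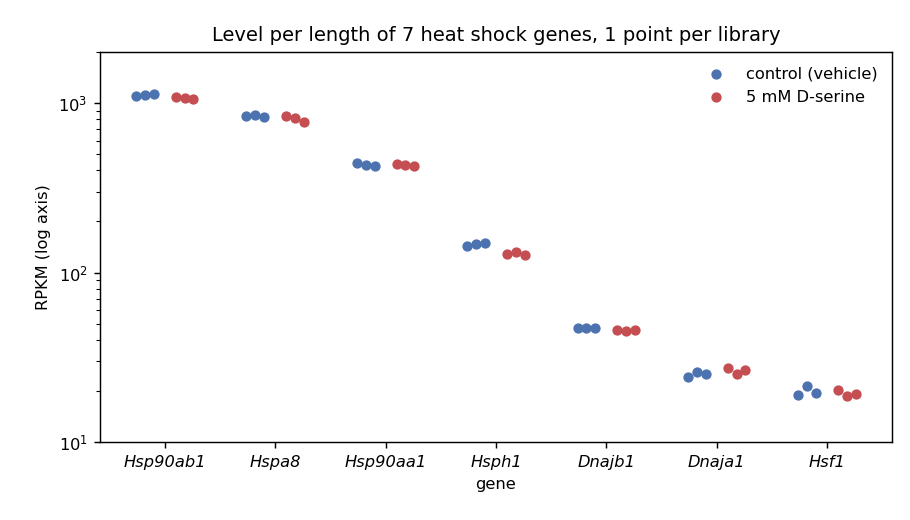
RPKM per library (log axis) of the 7 members that were tested, with control libraries in blue and D-serine libraries in red. The genes are ordered by mean level, from Hsp90ab1 at 1092 RPKM to Hsf1 at 19.7 RPKM, and the 2 groups lie close together for every gene. Hspa1a, Hspa1b and Hspb1, at or near 0, are left out.

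D-serine libraries were then compared with control libraries, to see whether exposure to D-serine altered these transcripts. Hsph1, the HSP110 nucleotide exchange factor, fell, and it was the 1 member of the 7 tested that passed an adjusted p of 0.05 in edgeR's quasi-likelihood test with Benjamini-Hochberg adjustment over 13366 genes. In the same test 9.74% of all genes passed, 4.9% lower and 4.84% higher, so 1 of 7 is close to the background share. Of the 1302 genes past the threshold 647 were higher and 655 lower, which became 914 and 412 under upper quartile scaling and 944 and 412 with library totals. The median log2 fold change was -0.039 over the 7 members and 0.0053 over all tested genes. Of the 7 values 6 were negative, beside 6476 of 13366 over all tested genes. At an unadjusted p under 0.05 there was also 1 member. At least 3580 of the 13366 tested genes lay under that value in the same test, so 1 of 7 is no excess.

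Hsph1 (chromosome 5, 150419420 to 150438890, minus strand, as deposited) had 495.5, 510.4 and 518.0 CPM in the controls (replicates 1 to 3), against 446.6, 457.9 and 438.9 CPM in the D-serine libraries in the same order. All 3 D-serine libraries lay below all 3 control libraries. Its log2 fold change was -0.18 (SE 0.040, 95% interval -0.27 to -0.097, edgeR adjusted p = 0.0167, n = 3 each), a change of -11.9% with an interval from -16.9% to -6.48%. None of its 3703 windows of 100 bases was shared with another gene's transcript. In RNA from a whole culture, less of a transcript in every cell and fewer cells that carry it cannot be told apart. Without D-serine replicate 1 the value was -0.18 (adjusted p = 0.00184). The decrease lost its call when control replicate 1 (adjusted p = 0.059), control replicate 2 (0.0937), control replicate 3 (0.0684) or D-serine replicate 3 (0.0774) was left out, although its log2 fold change then stayed between -0.20 and -0.17.

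**Figure D2:**
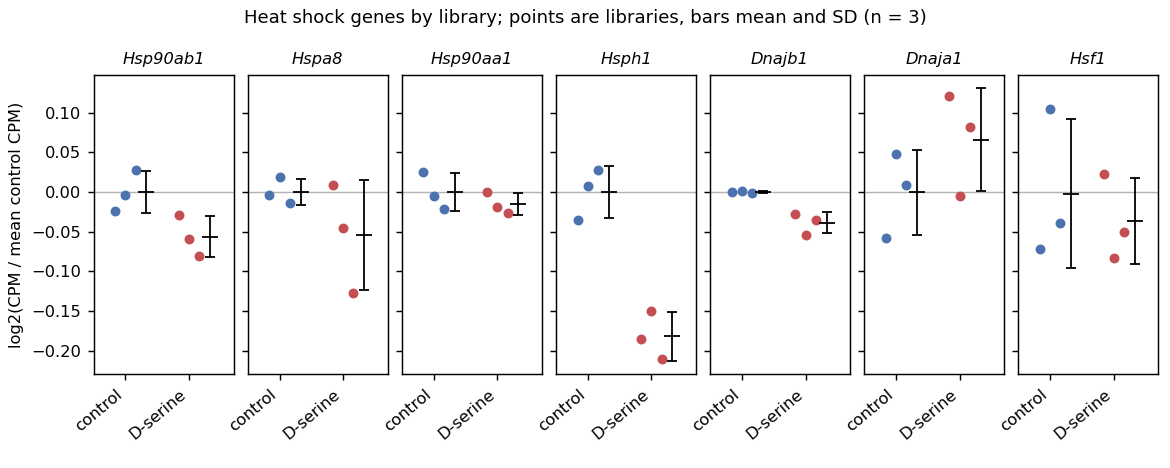
Each library's CPM relative to the mean of the control libraries, on a log2 scale, for the 7 tested members; points are libraries, and bars show mean and SD of the 3 libraries of a group. For Hsph1, Hsp90ab1 and Dnajb1 the red D-serine points do not overlap the blue control points, and the gap of Hsph1 is the widest.

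The HSP90 genes did not pass the test. Hsp90ab1 had 2744.2, 2784.6 and 2845.4 CPM in the controls (replicates 1 to 3), against 2735.2, 2678.0 and 2639.8 CPM in the D-serine libraries in the same order. The D-serine libraries lay just below the control libraries without overlap, and the log2 fold change was -0.056 (SE 0.034, interval -0.13 to 0.018, edgeR adjusted p = 0.305). Hsp90aa1 had 1259.5, 1233.1 and 1219.3 CPM in control and 1236.9, 1220.9 and 1214.2 CPM with D-serine. Its groups overlapped, with a log2 fold change of -0.016 (SE 0.036, interval -0.092 to 0.061, edgeR adjusted p = 0.816). The interval for this stress-inducible gene ran from -6.2% to 4.34%. In GENCODE, 47.5% of the 100-base windows of Hsp90aa1 also occurred in other transcripts, foremost the predicted gene Gm12346, and 0% of those of Hsp90ab1.

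Hspa8, the constitutive HSP70, had 1759.2, 1787.1 and 1747.0 CPM in the controls (replicates 1 to 3), against 1775.8, 1710.4 and 1614.8 CPM in the D-serine libraries in the same order. D-serine replicate 1 lay within the control range and D-serine replicate 3 below it. The log2 fold change was -0.053 (SE 0.040, interval -0.14 to 0.034, edgeR adjusted p = 0.416). It was -0.086 (adjusted p = 0.0721) without D-serine replicate 1, and -0.093 (adjusted p = 0.025) with D-serine replicate 1 left out and each library's trend on gene length removed, an analysis added after the data were seen. The value was closer to 0 without D-serine replicate 3 (-0.018, adjusted p = 0.853), under upper quartile scaling (-0.023, 0.771) and with library totals (-0.024, 0.746). Hspa8 shares 62.8% of its 100-base windows with transcripts of other genes, foremost Gm15459, so its counts carry that uncertainty.

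The J-domain genes did not pass either. Dnajb1, the partner of inducible HSP70 and a target of Hsf1, had 151.4, 151.6 and 151.3 CPM in control and 148.6, 145.9 and 147.8 CPM with D-serine. These groups did not overlap, but the difference was small beside the spread that the model assigns to genes of this level, with a log2 fold change of -0.039 (SE 0.040, interval -0.13 to 0.048, edgeR adjusted p = 0.564). Dnaja1 was the 1 member with a positive value. It had 140.1, 150.7 and 146.7 CPM in control and 158.6, 145.3 and 154.3 CPM with D-serine, which overlap (log2 fold change 0.067, SE 0.048, interval -0.037 to 0.17, edgeR adjusted p = 0.389). The value of Dnaja1 was 0.14 with the length trend removed (adjusted p = 0.0564) and 0.10 without D-serine replicate 2 (0.202). It was 0.038 when D-serine replicate 1 was omitted (0.599) and 0.040 when control replicate 1 was (0.714).

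Hsf1, the factor itself, had 38.2, 43.2 and 39.1 CPM in the controls (replicates 1 to 3), against 40.8, 37.9 and 38.8 CPM in the D-serine libraries in the same order, with overlapping groups. Its log2 fold change was -0.037 (SE 0.062, interval -0.17 to 0.097, edgeR adjusted p = 0.739). The activity of Hsf1 is regulated largely on the protein, which RNA does not show. Over the 6 tested members that did not pass, the 95% intervals reached from -11.2% to 12.5%. Control and D-serine values were fully separated in 3 of the 7 tested members (Hsph1, Hsp90ab1 and Dnajb1), and in 32.9% of all tested genes. Several of these values rested on the scaling or on single libraries. Hsp90ab1 had -0.070 without D-serine replicate 1 (adjusted p = 0.107) and -0.027 under upper quartile scaling (0.691) or library totals (0.65). Hsp90aa1 turned to 0.014 and Dnajb1 had -0.0090 under both of these scalings. For Hsf1, omitting replicate 1 gave -0.068 when it was the D-serine library (0.532) and -0.070 when it was the control (0.596). Omitting D-serine replicate 2 gave -0.014 (0.918), and omitting control replicate 2 turned the value to 0.020 (0.901).

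**Figure D3:**
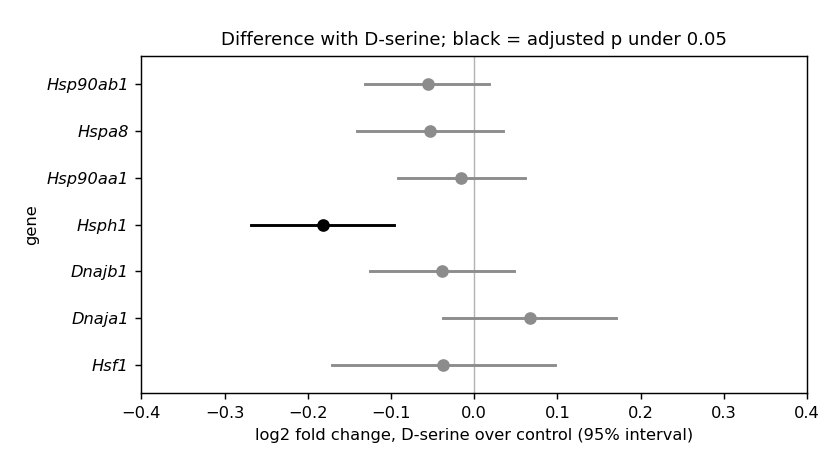
Log2 fold change of D-serine over control with its 95% interval from edgeR for the 7 tested members. Only the interval of Hsph1, from -0.27 to -0.097 and drawn in black, lies wholly below 0, and the other 6 intervals include 0.

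Ratios of counts between members within a library do not depend on the scaling between libraries. Hsp90aa1 to Hsp90ab1, the inducible to the constitutive HSP90, was 0.459, 0.443 and 0.429 in control and 0.452, 0.456 and 0.460 with D-serine, which overlap (exact two-sided permutation p = 0.3, adjusted over 3 ratios 0.3). Dnajb1 to Dnaja1 was 1.08, 1.01 and 1.03 in control and 0.937, 1 and 0.958 with D-serine. Hsph1 to Hspa8, a ratio added after the data were seen, was 0.282, 0.286 and 0.297 in control and 0.251, 0.268 and 0.272 with D-serine. Control and D-serine values of both of these ratios were separated, each at the smallest exact permutation p of 0.1 (0.15 adjusted). The planned ratio of Hspa1a plus Hspa1b to Hspa8 was not formed, since the numerator was 0 in 3 libraries.

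The genes whose profile over the 6 libraries was most like that of Hsph1 were sought among 7735 other genes with a mean of at least 20 CPM. Likeness was the root mean square difference of log2 CPM, each gene centred on its own mean. Since the choice used these same libraries, a similar difference between the groups follows from it and is no separate result. The nearest was Uba1, which encodes the enzyme that activates ubiquitin, at 0.00673, with 645.3 ± 15.2 CPM in control and 564.7 ± 12.3 with D-serine. Lhfpl2 followed at 0.0116 (69.5 ± 2.06 and 61.9 ± 0.86 CPM) and then Pcbp2, which encodes an RNA-binding protein, at 0.0142 (718.6 ± 24.2 and 630.1 ± 16.8 CPM). Pcbp2 shares 1571 exonic bases with Map3k12 on the opposite strand.

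The wider chaperone network was read from 9 lists that share some genes and hold 122 genes besides the members. Of 119 tested, 13 passed the edgeR threshold (10.9%, against 9.74% of all genes), 7 higher and 6 lower with D-serine, and their median log2 fold change was 0.0066. Every list held both positive and negative values. Of 23 further genes known as Hsf1 targets, 1 passed higher (Dnajb4) and 3 lower (St13 and Ahsa1 among them), with a median of -0.036. List medians near 0 changed sign with the scaling: under upper quartile scaling the median was 0.013 for the HSP90 cochaperones, 0.012 for the regulators and 0.024 for the endoplasmic reticulum chaperones, against negative values with the TMM scaling used here. Single libraries moved them as well. The median of the other cytosolic HSP70 and HSP110 genes was -0.13 without D-serine replicate 3, 0.045 with D-serine replicate 1 omitted and 0.028 with control replicate 1 omitted. The chaperonin and prefoldin median was -0.0042 without D-serine replicate 1 and -0.0040 with the length trend removed.

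Among the 25 J-domain proteins and HSP70 cochaperones, 3 passed higher and 1 lower (median 0.00011). Dnajb4, a J-domain protein, had means of 8.88 ± 0.902 CPM in control and 11.9 ± 0.125 with D-serine (SD over 3 libraries), and it rose by 0.43 on the log2 scale (SE 0.097, edgeR adjusted p = 0.0195). Dnajc2, a ribosome-bound J-domain protein, rose from 95.3 ± 1.55 to 105.6 ± 1.34 CPM (0.15, adjusted p = 0.0478). Dnajc8, found in splicing complexes, rose from 78.1 ± 4.39 to 88.3 ± 2.10 CPM (0.18, adjusted p = 0.049). St13, the HSP70-interacting protein Hip, fell from 358.1 ± 2.11 to 324.9 ± 6.19 CPM (-0.14, adjusted p = 0.0396).

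Among the 21 HSP90 cochaperones, 1 passed higher and 1 lower (median -0.018). Ahsa1, which stimulates the ATPase of HSP90, had 206.3, 209.5 and 223.4 CPM in control and 197.4, 178.4 and 182.6 CPM with D-serine, and it fell without overlap (edgeR log2 fold change -0.20 with SE 0.050, adjusted p = 0.0303). Pih1d1, part of the R2TP complex that works with HSP90, had 19.4, 19.3 and 21.9 CPM in control and 27.3, 26.0 and 26.0 CPM with D-serine, and it rose (0.38, SE 0.071, adjusted p = 0.0108). Pih1d1 shares 147 exonic bases with Aldh16a1 on the opposite strand.

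None of the 7 other cytosolic HSP70 and HSP110 genes passed (median -0.036), and the most strongly expressed, Hspa4, had a log2 fold change of 0.029 (adjusted p = 0.667). None of the 7 tested small heat shock genes passed either. Their median was 0.23, from genes of mostly low counts, and the most strongly expressed, Hspb8, had 170.5 ± 5.02 and 179.2 ± 3.08 CPM (0.071, edgeR adjusted p = 0.296). None of the 12 tested heat shock factors and regulators passed (median -0.018), with Vcp at 0.066 (adjusted p = 0.34). Of the 16 chaperonin and prefoldin genes, 1 passed (median 0.029), namely the prefoldin subunit Pfdn1, which rose from 57.1 ± 2.41 to 66.1 ± 3 CPM (0.21, adjusted p = 0.0303).

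The chaperones of other compartments are given for comparison. Of 12 mitochondrial genes, 2 passed higher and 1 lower (median 0.070). Trap1, the mitochondrial HSP90, rose from 121.2 ± 0.986 to 141.2 ± 3.3 CPM (0.22 in log2, SE 0.042, edgeR adjusted p = 0.0115), and the protease Clpp rose from 36.3 ± 1.80 to 47.0 ± 5.24 CPM (0.37, adjusted p = 0.0142). Hspa9, the mitochondrial HSP70, fell from 1665.8 ± 30.7 to 1514.5 ± 48.6 CPM (-0.14, adjusted p = 0.0393). Of 13 chaperones of the endoplasmic reticulum, 2 passed, both lower (median -0.0060). They were Hyou1, the HSP110 relative of that compartment, at 1933.7 ± 28.6 and 1734.3 ± 28.5 CPM (-0.16, edgeR adjusted p = 0.0187), and the disulfide isomerase Pdia6 at 824.9 ± 21.8 and 728.6 ± 39.3 CPM (-0.18, adjusted p = 0.0279). Trap1 shares 48 exonic bases with Dnase1 and Pdia6 shares 50 with Atp6v1c2, each on the opposite strand.

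**Figure D4:**
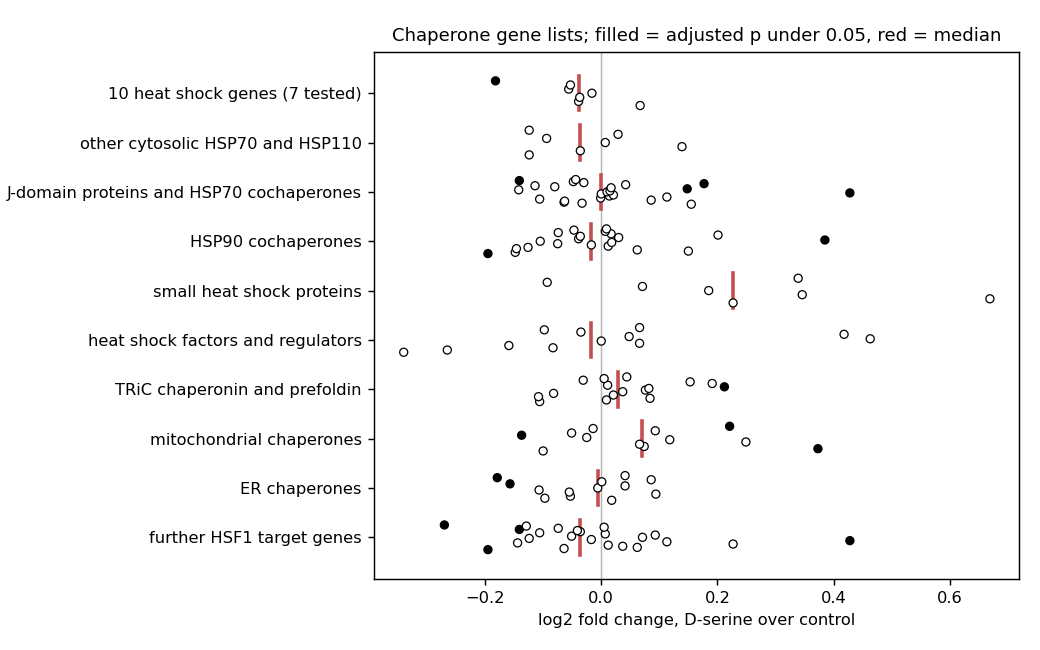
Log2 fold change of D-serine over control for each tested gene of the 10 heat shock genes and of 9 wider lists, with genes past an adjusted p of 0.05 filled and list medians in red. Filled points lie on both sides of 0 in 4 lists, and Dnajb4 at 0.43 is the highest of them.

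The calls of the wider lists were sensitive to single libraries. With control replicate 1 or control replicate 2 left out, 0 of these genes passed in edgeR. Over all tested genes, 125 of 13567 and 68 of 13565 passed in these fits, so calls were lost across all genes and not in the lists alone. Without control replicate 3 there were 3 in the lists, and 453 of 13574 over all tested genes. Without D-serine replicate 3 there was 1 in the lists, and without D-serine replicate 1 there were 25. The count over all tested genes also moved with the library left out, so these shifts are not read as a trait of the lists. Each of the 13 genes thus lost its call in at least 1 such fit. St13, Ahsa1, Hspa9 and Pdia6 passed neither under upper quartile scaling (adjusted p from 0.0627 to 0.11) nor with library totals (0.053 to 0.0899). Dnajc2 and Dnajc8 did not pass with DESeq2 size factors (adjusted p = 0.0506 and 0.051), nor Dnajc2 without the filter on low counts (0.0529). With the length trend removed, Dnajc8 dropped to 0.11 (0.0929) and Pfdn1 to 0.13 (0.0661), and neither passed.

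**Figure D5:**
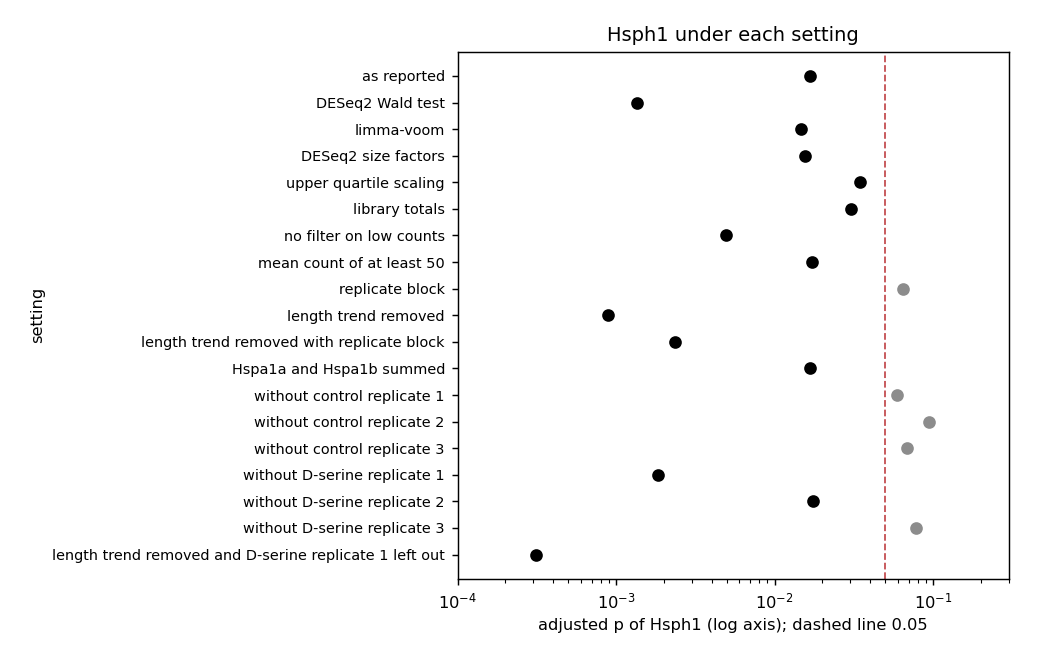
Adjusted p of Hsph1 (log axis) as reported and under each of 18 alternatives, with the threshold of 0.05 as a dashed line. It lay under the line in 13 alternatives, shown in black, and above it in 5, shown in grey, with the highest value of 0.0937 without control replicate 2.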

How the data were processed

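The authors deposited raw read counts per gene for 6 poly(A) RNA libraries, with exon positions and summed exon lengths, in the layout of featureCounts, per the file headers. The submitters' processing notes name Trim Galore, HISAT2 and featureCounts and the builds GRCm38 and mm10, with no versions. The kit keeps strand, per the labels' protocols, but the strand setting of the counting, the annotation and the treatment of reads with several positions are not given in the sources used here. None of the 10 members starts within 1000 bases of its GRCm38 position, so coordinates are printed as deposited. Counts were tested with edgeR 4.0.16 in R 4.3.3 (filterByExpr, TMM scaling, quasi-likelihood F test, no covariate). Intervals use the fitted log2 fold change and its SE, which is its size over the square root of F. CPM and RPKM use TMM-adjusted library sizes. The alternatives used DESeq2 1.42.0, limma-voom (limma 3.58.1), other scalings and filters, the replicate block, removal of a length trend (natural spline, 5 degrees of freedom), summed Hspa1a and Hspa1b, and each library left out. The procedure was tested on simulated counts, which held neither an outlying library nor a trend on gene length.

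Members, lists and tests were chosen with earlier results of these data known. Every member is named, as are, of each list, up to 4 genes past the threshold, or the most strongly expressed gene where none passed, and the 3 genes most like the member with the smallest p; single genes that this rule or the marker lists would name are not reported here. Columns named vehicle were matched to the control samples of the same number. Exon overlap used bedtools 2.31.1.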

Additional observations from a re-analysis of the deposited data

How the results depend on the processing

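Same-numbered libraries of the groups did not vary together (correlations of -0.0557, 0.0254 and -0.0174), so the numbers are not taken as pairs. With the replicate block, 298 genes, 0 members and 2 genes of the wider lists passed, and Hsph1 had -0.182 (adjusted p = 0.0642). With the length trend removed, 2043 of 13366 genes and 23 genes of the wider lists passed. With the replicate block added, 1900 genes and 21 genes of the wider lists did. With that trend removed and D-serine replicate 1 left out, 2 members (Hsph1 and Hspa8) and 23 genes of the wider lists passed. That alternative was added after the data were seen. The share of all genes that passed in it is not set beside these counts, so they are not read as a result about the members or lists. Leaving out each library in turn gave from 68 to 1699 genes, from 0 to 1 members and from 0 to 25 genes of the wider lists, with Hsph1 between -0.199 and -0.167. The cause of these shifts was not tested. No alternative turned the sign of a called value. Hsp90aa1 changed sign in 2 of 18 alternatives and Hsf1 in 1, neither past the threshold in any. Low counts left Hspa1a, Hspa1b and Hspb1 untested in the main fit. Without the filter on low counts all 10 members were tested in edgeR, and Hsph1 was the 1 that passed (adjusted p = 0.0049).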
